A study of Arabidopsis thaliana with 24 samples.

Results

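The genes described here encode proteins that loosen, trim or build the polysaccharides of the Arabidopsis cell wall. They were chosen by symbol, as XTH or XTR genes, expansins and expansin-like genes (EXPA, EXPB, EXLA, EXLB, EXP), GH9 endoglucanases, PME genes, CESA genes and CSL genes, on array probe sets assigned to 1 gene. The choice gave 51 of the 13356 genes with such a probe set, in 12 families. They were 9 XTH, 10 EXPA, 4 EXPB, 3 EXLA, 1 EXLB, 2 GH9A, 10 GH9B, 3 GH9C, 1 PME, 2 CSLA, 5 CSLC and 1 CSLD genes. The reference gene table holds 138 genes with symbols of this kind, 7 CESA genes among them, and those without a single-gene probe set under the annotation used were not analysed here. The 51 genes had 1 probe set each.

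A plant cell wall is a network of cellulose microfibrils held in a matrix of hemicelluloses, such as xyloglucan, and pectin, and a cell expands when this network is loosened while turgor pushes on it. XTH enzymes cut and rejoin xyloglucan chains, expansins loosen the network without cutting it, GH9 enzymes cut unsubstituted glucan chains, and pectin methylesterases (PME) remove methyl groups from pectin. CSLC proteins make the glucan backbone of xyloglucan, CSLA proteins make mannans, and CSLD proteins resemble the cellulose synthases most closely. The families are large, and single members can serve single tissues, as EXPA7 and EXPA18 do in root hairs.

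Transcript levels were measured in whole plants on 24 ATH1 arrays, 3 in each of 8 groups. The groups were the wild type Col-0, the single knockout mutants mkk1 (SALK_027645) and mkk2 (Garlic_511-HO1) and the double mutant mkk1/mkk2, whose labels name no allele, each untreated and 24 h after BTH, with no age given. MKK1 and MKK2 encode MAP kinase kinases, which relay signals by phosphorylation, and BTH (benzothiadiazole) mimics the defence hormone salicylic acid. They were grown in soil, with 8 h of light a day. Titles and source names gave the groups. Other fields disagree with them, since the description is that of untreated wild type throughout and the treatment notes state a spray of 100 µM for 6 samples, the mkk2 and mkk1/mkk2 plants after BTH, and a control treatment for the other 18, so that the BTH label of Col-0 and mkk1 rests on titles and source names. Untreated Col-0 is titled time 0 and the untreated mutants carry no time. Genotype and any difference in harvest time therefore cannot be told apart there. No mock-sprayed group is titled, so BTH, the spraying and any difference in harvest time cannot be told apart between untreated and BTH plants. MKK1 and MKK2 had no single-gene probe set, so the genotypes were not checked by their own transcripts. Nothing states that replicates were separate plants or pools, and p-values therefore measure the spread between these samples, which may be technical.

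Values are log2 expression values per probe set, on which 1 unit is 2-fold, and array medians lay between 5.57 and 5.78. A difference was called where limma gave an adjusted p under 0.05 over all 22746 probe sets, and ± gives limma's standard error, with 3 arrays per group. Of the 51 genes, 31 had a mean below 5.67, the median of all tested values, and nothing in the files marks which values are above background. Arrays of 1 group correlated at r = 0.932 to 0.996. Those standing apart were replicate A of untreated mkk1/mkk2 (mean r with its group 0.933), replicate A of Col-0 after BTH (0.975) and replicate B of untreated mkk2 (0.976). The difference between the hybridization controls bioC and bioD was between -2.23 and -1.77 for Col-0 and mkk1/mkk2, and between -3.61 and -3.32 for both single mutants, so for each single mutant against Col-0 this split of the arrays and the genotype cannot be told apart. GAPDH 3′ signal exceeded 5′ signal, a sign of RNA degradation, by 0.70 to 1.18 in untreated Col-0, 0.29 to 1.27 in untreated mkk1/mkk2, 0.26 to 0.31 in untreated mkk1 and 0.30 to 0.61 in untreated mkk2. After BTH it was 0.60 to 0.73 in Col-0, 0.14 to 0.52 in mkk1/mkk2, -0.04 to 0.23 in mkk1 and -0.07 to 0.19 in mkk2. It thus differed between untreated and BTH plants in both single mutants and with genotype after BTH, with no overlap between the groups compared. Untreated, both single mutants also lay below Col-0 without overlap, whereas mkk1/mkk2 overlapped with Col-0. The part of the GAPDH difference in the results below was not tested. In whole plants, fewer cells of a type and less RNA per cell cannot be told apart.

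**Figure D1:**
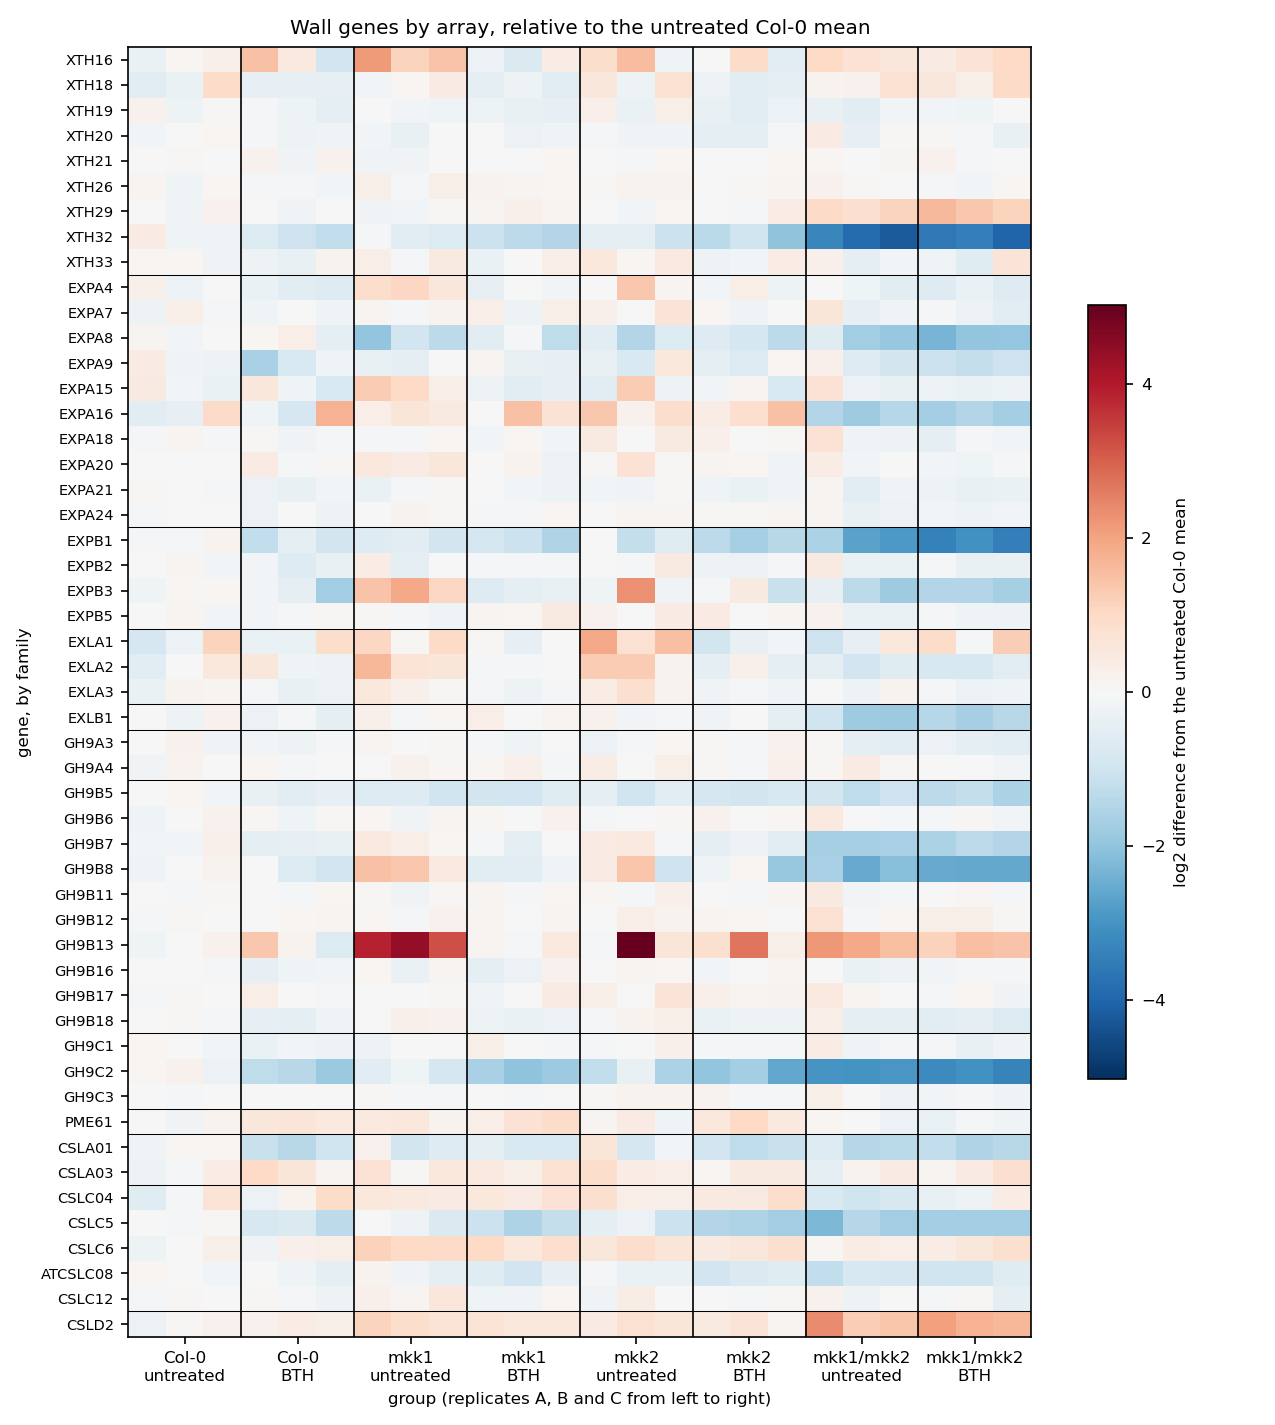
Each row is 1 of the 51 genes, ordered by family, each column 1 of the 24 arrays, and the colour is the log2 difference from the gene's mean in untreated Col-0 (blue lower, red higher). XTH32 and GH9C2 are blue on all 6 mkk1/mkk2 arrays, and GH9B13 is deep red on the 3 untreated mkk1 arrays and on replicate B of untreated mkk2.

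In the double mutant most of the wall genes that differed from the wild type were lower. In untreated plants 13 of 51 genes were lower in mkk1/mkk2 than in Col-0 (25.5%, against 17.2% of all 22746 probe sets) and 2 were higher (3.92%, against 16.1%), so that 29.4% differed in all, against 33.3% of all probe sets. The lower genes were XTH32, EXPA8, EXPA16, EXPB1, EXLB1, GH9B5, GH9B7, GH9B8, GH9C2, CSLA01, CSLC04, CSLC5 and ATCSLC08, and the higher ones were XTH29 and CSLD2. The median change over the 51 genes was -0.12, beside -0.01 over all probe sets. After BTH 12 were lower (23.5%, against 10.2%) and 3 higher (5.88%, against 11.4%), 29.4% in all against 21.6%, and 13 of the 15 called in each state were called in the same direction in the other, 86.7% of either list. On the same 6 mkk1/mkk2 arrays the 4 leaf photosynthesis markers averaged 10.62 to 11.09, against 11.28 to 12.31 on the other 18. The root marker PYK10 was 7.76 to 9.71 in mkk1/mkk2, against 3.53 to 7.24 in Col-0. PYK10 also reached 8.37 in untreated mkk1 and 8.52 on replicate B of untreated mkk2, within the mkk1/mkk2 range. The part of these markers in the results was not tested. The untreated and BTH comparisons share no array, but each gene's spread was estimated from all 24 arrays for both. Over all probe sets the shared calls made up 53.0% of the untreated list and 81.6% of the BTH list.

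Among enzymes that act on xyloglucan, XTH32 (AT2G36870) had the largest fall of the 51 genes. It stood at 11.41, 10.76 and 10.78 in untreated Col-0 replicates A, B and C, and at 7.69, 7.12 and 6.75 in untreated mkk1/mkk2. The groups were far apart, and the change was -3.80 ± 0.28 (SE, n = 3 per group), a 13.9-fold lower level (adjusted p = 2.5e-09). After BTH the values were 10.28, 9.94 and 9.76 in Col-0 and 7.37, 7.54 and 6.97 in mkk1/mkk2, a change of -2.70 ± 0.28 (6.50-fold, adjusted p = 4.82e-07). XTH32 was not called in a single mutant, where it was 9.90 to 10.90 untreated and 8.96 to 9.98 after BTH, and all 12 of those arrays lay above the highest mkk1/mkk2 array.

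The other XTH genes did not follow XTH32. XTH29 (AT4G18990) was 4.77, 4.60 and 4.94 in untreated mkk1/mkk2 and 3.78, 3.61 and 4.02 in untreated Col-0, a change of 0.97 ± 0.15 (adjusted p = 3.15e-05). After BTH it was 5.44, 5.14 and 4.94 against 3.81, 3.64 and 3.84, and all 6 mkk1/mkk2 arrays lay above the other 18, none of which exceeded 4.19. XTH18 (AT4G30280) was higher in mkk1/mkk2 than in Col-0 after BTH, by 1.02 ± 0.30 (adjusted p = 0.019), with values of 4.33, 4.04 and 4.71 against 3.33 to 3.35, while untreated Col-0 reached 4.65 on replicate C. Without BTH-treated Col-0 replicate A, or without BTH-treated mkk1/mkk2 replicate C, XTH18 did not pass the test. Its neighbour by locus number, XTH19 (AT4G30290), was 3.46, 3.38 and 3.60 against 3.49, 3.37 and 3.14 and did not pass the test. Cross-hybridization between such close relatives was not tested.

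Expansins, which loosen the wall without hydrolysis, were lower in the double mutant where they differed. EXPB1 (AT2G20750), a beta-expansin, stood at 8.05, 8.03 and 8.28 in untreated Col-0 and 6.52, 5.41 and 5.25 in untreated mkk1/mkk2, a change of -2.39 ± 0.30 (5.25-fold, adjusted p = 3.11e-06). After BTH it was 6.88, 7.61 and 7.18 against 4.73, 5.09 and 4.69 (-2.39 ± 0.30). The groups did not overlap in either state, and replicate A of untreated mkk1/mkk2, an array that stood apart, was the highest of its group. EXLB1 (AT4G17030), an expansin-like gene, fell from 7.30, 7.04 and 7.49 in untreated Col-0 to 6.27, 5.49 and 5.43 in untreated mkk1/mkk2 (-1.55 ± 0.19, adjusted p = 2.4e-06) and was 1.21 ± 0.19 lower after BTH.

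Among 10 alpha-expansins, EXPA8 and EXPA16 were lower in mkk1/mkk2 in both states and the other 8 did not pass the test in either. EXPA8 (AT2G40610) was 8.91, 8.62 and 8.76 in untreated Col-0 against 8.14, 7.01 and 6.85 (-1.43 ± 0.35, adjusted p = 0.0034), and 8.87, 9.08 and 8.32 against 6.44, 6.76 and 6.80 after BTH (-2.09 ± 0.35). EXPA16 (AT3G55500) varied more within Col-0, at 5.37, 5.52 and 6.91 untreated and 5.72, 5.08 and 7.68 after BTH. On the 6 mkk1/mkk2 arrays it kept to 4.14 to 4.51, below every other array, with changes of -1.56 ± 0.52 untreated and -1.85 ± 0.52 after BTH. The untreated call was lost without Col-0 replicate C (adjusted p up to 0.152 over the alternatives) or without mkk1/mkk2 replicate B, and the call after BTH without BTH-treated Col-0 replicate C or when the compared groups were fitted alone. EXPA4 (AT2G39700) was 7.30 to 7.95 in mkk1/mkk2 and 7.31 to 8.23 in Col-0, with overlap in both states.

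**Figure D2:**
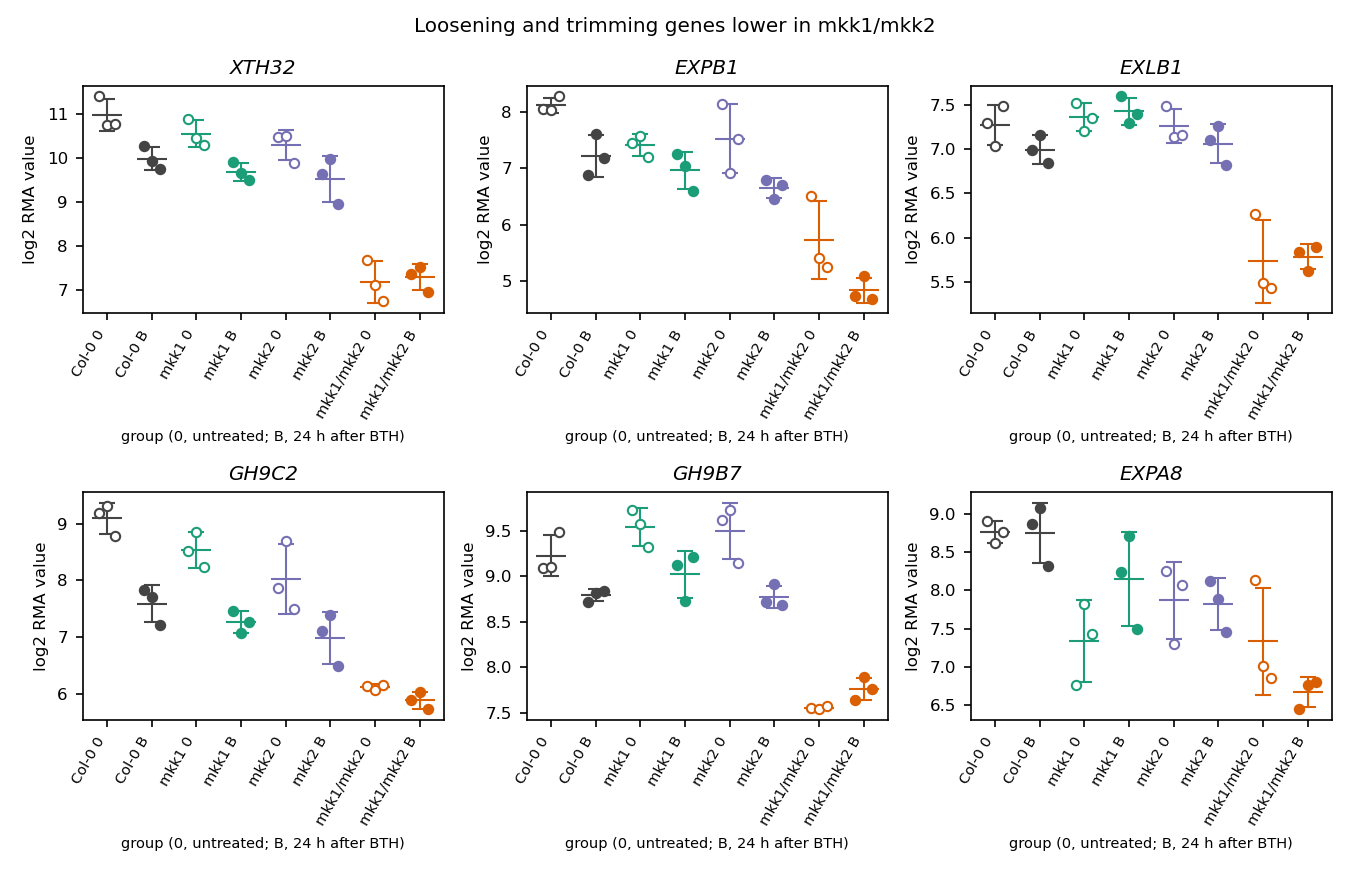
Log2 RMA values of 6 genes on each array (points, 3 per group; open, untreated; filled, 24 h after BTH), with the group mean and SD as bars. In XTH32, EXPB1, EXLB1, GH9C2 and GH9B7 the 6 mkk1/mkk2 arrays lie below the Col-0 arrays of the same treatment, and in EXPA8 replicate A of untreated mkk1/mkk2 (8.14) is the nearest to Col-0.

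The endoglucanases split between a few that fell and many that did not pass the test. GH9C2 (AT1G64390), of the GH9C group that carries a carbohydrate-binding module, stood at 9.18, 9.31 and 8.78 in untreated Col-0 and at 6.14, 6.07 and 6.15 in untreated mkk1/mkk2, 7.84-fold lower (-2.97 ± 0.26, adjusted p = 3.5e-08). After BTH it was 7.83, 7.71 and 7.21 against 5.89, 6.03 and 5.72 (-1.70 ± 0.26). GH9B7 (AT1G75680), a secreted type, went from 9.09, 9.10 and 9.48 to 7.56, 7.54 and 7.58 (-1.66 ± 0.16, adjusted p = 7.77e-08), and was 1.03 ± 0.16 lower after BTH. The untreated mkk1/mkk2 replicates of each gene lay close together and far below every Col-0 array of the same state.

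GH9B8 (AT2G32990) was 4.28-fold lower in untreated mkk1/mkk2, at 4.64, 3.73 and 4.11 against 6.04, 6.28 and 6.45 (adjusted p = 0.00226), and 3.97-fold lower after BTH. GH9B5 (AT1G19940) was lower by 1.08 ± 0.15 untreated and by 0.92 ± 0.15 after BTH. The other GH9C genes, GH9C1 (AT1G48930) and GH9C3 (AT4G11050), were not called, at 3.18 to 3.97 on all arrays. PME61 (AT3G59010), the only pectin methylesterase gene among the 51, was lower in mkk1/mkk2 only after BTH in this test, at 5.90, 6.18 and 6.02 against 6.82, 6.85 and 6.74 (-0.77 ± 0.18, adjusted p = 0.00306), while untreated values were 6.34, 6.20 and 5.95 against 6.24, 6.07 and 6.40. The BTH response of PME61 differed between mkk1/mkk2 and Col-0 by -0.70 ± 0.25, short of the threshold (adjusted p = 0.192).

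**Figure D3:**
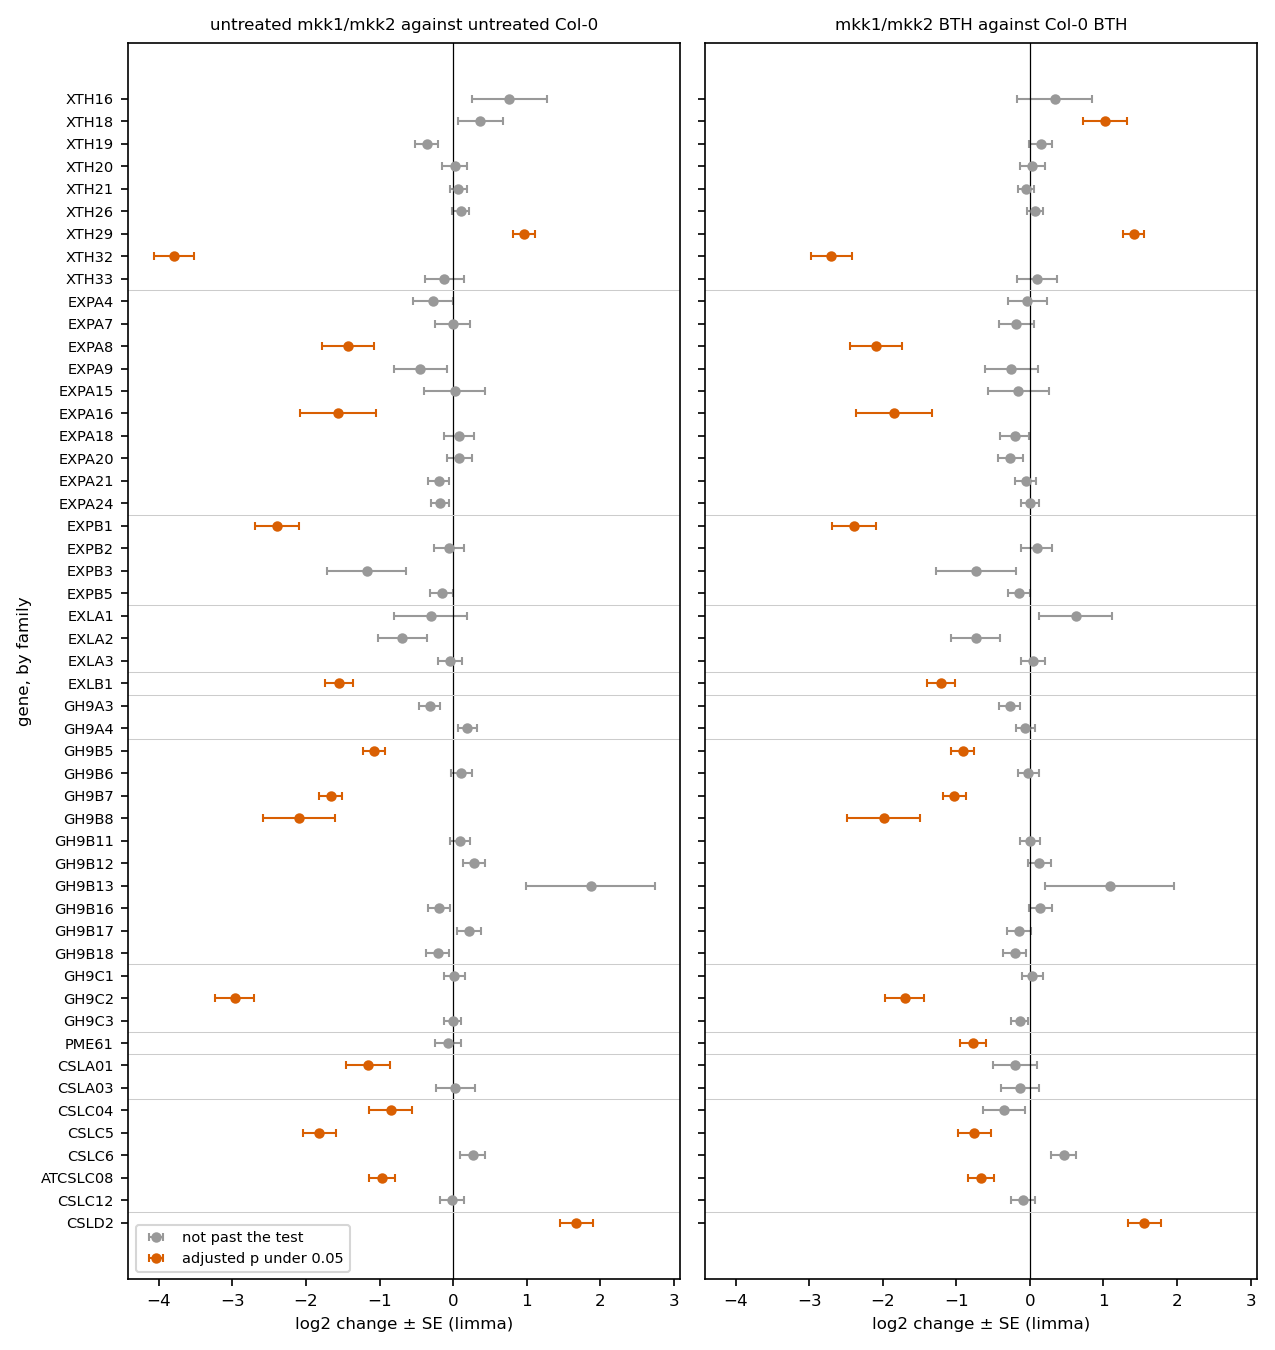
Log2 change of each of the 51 genes between mkk1/mkk2 and Col-0, with its standard error from limma, untreated on the left and 24 h after BTH on the right; orange points have an adjusted p under 0.05. XTH32 lies farthest left in both panels, at -3.80 and -2.70, and CSLD2 and XTH29 lie to the right of 0 in both.

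The glycan synthases moved in both directions. All 5 CSLC genes, which encode the synthases of the xyloglucan backbone, were measured, and 3 of them were lower in untreated mkk1/mkk2. CSLC5 (AT4G31590) stood at 7.75, 7.63 and 7.76 in untreated Col-0 and 5.44, 6.27 and 5.98 in untreated mkk1/mkk2 (-1.82 ± 0.22, 3.52-fold, adjusted p = 2.51e-06). ATCSLC08 (AT2G24630) was 6.22, 6.14 and 5.99 against 4.88, 5.31 and 5.26 (-0.97 ± 0.18). For CSLC04 (AT3G28180) the values were 7.71, 8.20 and 9.0 against 7.53, 7.32 and 7.51 (-0.85 ± 0.29, adjusted p = 0.029). The CSLC04 call was lost without any of 4 arrays, replicates B or C of either group, and with the compared groups fitted alone. After BTH, CSLC5 (-0.76 ± 0.22) and ATCSLC08 (-0.67 ± 0.18) were lower, but ATCSLC08 was not called without Col-0 replicate A, and CSLC5 was not called without Col-0 replicate A or B or mkk1/mkk2 replicate B.

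CSLC6 (AT3G07330) and CSLC12 (AT4G07960) had differences of 0.27 and -0.01 in untreated mkk1/mkk2 and were not called. CSLA01 (AT4G16590), of the mannan synthase family, was lower in untreated mkk1/mkk2 (-1.16 ± 0.30, adjusted p = 0.00475), and CSLA03 (AT1G23480) was not called (0.03 ± 0.26). CSLD2 (AT5G16910), whose family is known from root hair and other tip growth, went the other way. It was 8.01, 6.87 and 6.99 in untreated mkk1/mkk2 and 5.33, 5.68 and 5.83 in Col-0 (1.68 ± 0.22, 3.20-fold, adjusted p = 6.62e-06), and 7.69, 7.36 and 7.29 against 5.81, 5.98 and 5.89 after BTH (1.55 ± 0.22). All 6 mkk1/mkk2 arrays exceeded all 18 others, of which the highest was 6.73.

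**Figure D4:**
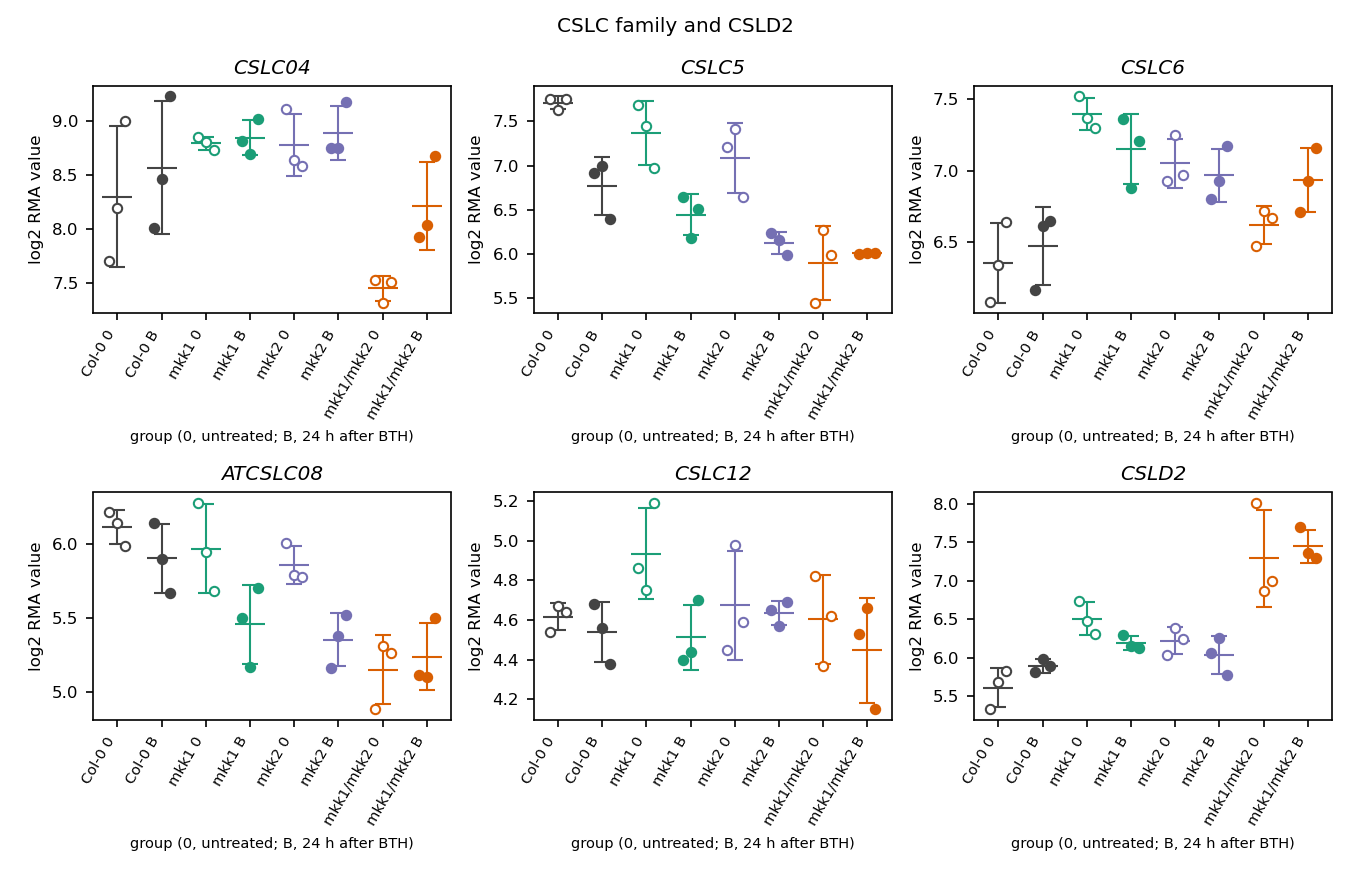
Log2 RMA values of the 5 CSLC genes and CSLD2 on each array (points, 3 per group; open, untreated; filled, 24 h after BTH), with the group mean and SD as bars. CSLC5 is lower after BTH in Col-0, mkk1 and mkk2 and low in mkk1/mkk2 in both states, and CSLD2 is highest in mkk1/mkk2.

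In the wild type, 4 of the 51 genes were called lower after BTH and none higher. The 4 were GH9C2, CSLA01, XTH32 and CSLC5, a share of 7.84% beside 4.27% of all probe sets that were lower, 4.55% that were higher and 8.82% in both directions. GH9C2 fell from 9.18, 9.31 and 8.78 to 7.83, 7.71 and 7.21, with no overlap (-1.51 ± 0.26, 2.84-fold, adjusted p = 0.000818). CSLA01 fell from 5.85, 6.12 and 6.15 to 4.92, 4.63 and 5.03 (-1.18 ± 0.30). XTH32 fell by 0.99 ± 0.28 (adjusted p = 0.0288) and CSLC5 by 0.95 ± 0.22 (adjusted p = 0.00963). At an unadjusted p under 0.05 there were 11 genes, or 21.6%, beside 20.3% of all probe sets. Of the 4 calls, that of GH9C2 held in all 33 alternatives, while XTH32 was not called without untreated replicate A or BTH-treated replicate B or C, CSLA01 without replicate B of either group, and CSLC5 without BTH-treated replicate C. The count was 16 with array weights, which give noisier arrays less influence (3 higher, 13 lower), and 6 with only the groups compared or with the level filter (1 higher, 5 lower in each). It was 9 with the 3 outlying arrays left out (1 higher, 8 lower), 8 without mkk1/mkk2 untreated replicate A, 7 without untreated mkk2 replicate B, and 2 without BTH-treated replicate B or C.

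In mkk1, 7 genes were lower after BTH and none higher. The lower genes made up 13.7%, against 3.81% of all probe sets lower, 4.77% higher and 8.57% in all. GH9C2 fell from 8.51, 8.86 and 8.23 to 7.46, 7.07 and 7.27 (-1.27 ± 0.26, adjusted p = 0.00407) and CSLC5 from 7.69, 7.45 and 6.97 to 6.64, 6.18 and 6.51 (-0.93 ± 0.22). The other 5 were GH9B13 (-3.64 ± 0.87), EXPB3 (-1.96 ± 0.54), XTH16 (-1.77 ± 0.51), EXPA4 (-1.03 ± 0.27) and GH9B7 (-0.52 ± 0.16), and each of these, and CSLC5, lost its call without 1 or more single arrays. The root marker PYK10 went from 8.37, 8.16 and 7.30 to 5.62, 4.81 and 5.89 on the same arrays, and its part in these falls was not tested. The count was 16 with array weights, 13 with only the groups compared and 11 with the level filter, all lower. It was 15 with the 3 outlying arrays left out, 14 without mkk1/mkk2 untreated replicate A, 2 without untreated mkk1 replicate A, 3 without untreated replicate B, 3 without BTH-treated replicate A and 2 without BTH-treated replicate B.

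In mkk2, 7 genes were lower after BTH and 1 higher (13.7% and 1.96%, against 4.55% lower, 6.20% higher and 10.7% in all). All 3 EXLA genes, which encode expansin-like proteins with no settled activity, fell there. EXLA1 (AT3G45970) fell from 8.18, 7.02 and 7.76 to 5.34, 5.89 and 6.13 (-1.87 ± 0.50, 3.65-fold, adjusted p = 0.017). EXLA2 (AT4G38400) went from 6.62, 6.59 and 5.52 to 4.88, 5.59 and 4.85 (-1.14 ± 0.33), with overlap, and EXLA3 (AT3G45960) fell by 0.59 ± 0.16. Each of the 3 lost its call without some single array of this genotype, among them untreated and BTH-treated replicate A. EXLA2 and EXLA3 also lost theirs without untreated replicate B, without the 3 arrays that stood apart and with only the groups compared. With quantile normalization the EXLA3 call was lost too. The EXLA changes were 0.07, 0.03 and -0.25 in Col-0 and -0.83, -1.03 and -0.43 in mkk1, where none passed the test, and the difference of the EXLA1 response in mkk2 from that in Col-0 was -1.94 ± 0.70 (adjusted p = 0.864).

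GH9B7 (-0.72 ± 0.16), GH9C2 (-1.04 ± 0.26), CSLC5 (-0.97 ± 0.22) and CSLA01 (-1.0 ± 0.30) were the other genes that fell in mkk2, the calls of GH9B7 and CSLC5 holding in all 33 alternatives. The GH9C2 call was lost without untreated replicate B, an array that stood apart, and without BTH-treated replicate C. It was also lost without the 3 arrays that stood apart and with only the groups compared. PME61 rose by 0.56 ± 0.18 (adjusted p = 0.0484), a call lost in 22 of 33 alternatives, both rescalings among them. In Col-0 it went from 6.24, 6.07 and 6.40 to 6.82, 6.85 and 6.74, without overlap and without passing the test. The count in mkk2 was 14 with array weights and 3 with only the groups compared. It was also 3 without untreated replicate A and without BTH-treated replicate A or C. GH9C2 and CSLC5 were the 2 genes called in Col-0, mkk1 and mkk2 alike, comparisons that share no array but share each gene's spread estimate. They made up 50.0%, 28.6% and 25.0% of the lists, and over all probe sets such shared calls made up 46.0%, 47.3% and 37.7%.

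In mkk1/mkk2, none of the 51 genes differed after BTH by limma at an adjusted p under 0.05. Of 22746 probe sets in all, 76 did (0.334%), 0.264% higher and 0.0703% lower. The smallest adjusted p among the 51 genes was 0.278, for EXPB1 (-0.89 ± 0.30). At an unadjusted p under 0.05 there were 4 genes, or 7.84%, beside 12.2% of all probe sets, and the count of adjusted calls was 0 in each of the 33 alternatives. GH9C2 was 6.14, 6.07 and 6.15 untreated and 5.89, 6.03 and 5.72 after BTH, all below its lowest Col-0 value after BTH (7.21). In untreated mkk1/mkk2, CSLC5 averaged 5.90 and CSLA01 4.88, beside 6.77 and 4.86 in Col-0 after BTH.

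Whether the response itself differed was tested directly. None of the 51 genes passed for mkk1, mkk2 or mkk1/mkk2 against Col-0 by limma, with 0, 5 and 531 probe sets called in all. These were 0% for mkk1, 0.0220% for mkk2 (all higher), and 2.33% for mkk1/mkk2 (0.936% higher, 1.40% lower), with an unadjusted p under 0.05 in 5, 3 and 8 of the 51 genes. These are 9.80%, 5.88% and 15.7% of the genes, beside 9.83%, 3.84% and 12.4% of all probe sets. With array weights the counts at an adjusted p under 0.05 were 4, 2 and 3, and for mkk1/mkk2 the count was 1 with only the groups compared and 2 without the 3 outlying arrays. For mkk1/mkk2 the nearest were GH9C2 (1.27 ± 0.37, adjusted p = 0.0885) and CSLC5 (1.06 ± 0.32, adjusted p = 0.0958), and for XTH32 the difference was 1.1 ± 0.39 (adjusted p = 0.19). All 3 are positive, the BTH change having been nearer to 0 in mkk1/mkk2. The BTH comparison in Col-0 and that of untreated mkk1/mkk2 with untreated Col-0 share the 3 untreated Col-0 arrays, so the falls of GH9C2, CSLC5, CSLA01 and XTH32 in both are not independent.

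Untreated mkk1 differed from untreated Col-0 in 8 genes, 6 higher (11.8%, against 9.46% of probe sets) and 2 lower (3.92%, against 7.83%), with 17.3% of probe sets called in all. GH9B13 (AT4G02290) stood out, at 9.04, 9.60 and 8.40 in untreated mkk1 and 4.95, 5.18 and 5.38 in untreated Col-0 (3.84 ± 0.87, 14.4-fold, adjusted p = 0.00518). After BTH it was 5.31, 5.12 and 5.68 in mkk1, the level of Col-0, where it was 6.54, 5.33 and 4.49. In untreated mkk2 it was 5.10, 10.20 and 5.76, so that replicate B alone was higher than any mkk1 array, and in mkk1/mkk2 it was 6.31 to 7.35. The change in untreated mkk1/mkk2, 1.87 ± 0.87, missed the threshold (adjusted p = 0.113), although its arrays did not overlap with those of Col-0.

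Other genes ran along with GH9B13 on the same arrays. EXPB3 (AT4G28250) was 9.14, 9.62 and 8.75 in untreated mkk1 against 7.49, 7.80 and 7.81 in untreated Col-0, and it reached 9.99 on replicate B of untreated mkk2, with 7.48 and 7.52 on A and C. XTH16 (AT3G23730) was 9.38, 8.36 and 8.67 against 6.90, 7.34 and 7.52 (1.55 ± 0.51, adjusted p = 0.0419), and EXPA4 was 8.86, 9.02 and 8.55 against 8.23, 7.67 and 8.00 (0.84 ± 0.27, adjusted p = 0.0366). The XTH16 call was lost in 11 of 33 alternatives and that of EXPA4 in 6, array median centring among them for both, and EXPB3 was not called. On replicate B of untreated mkk2, XTH16, EXPA4, EXPA15 and GH9B8 were each higher than on A and C.

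The root marker PYK10 (AT3G09260), a beta-glucosidase of roots and hypocotyls, moved with these genes. It was 8.37, 8.16 and 7.30 in untreated mkk1, 4.23, 5.02 and 4.68 in untreated Col-0, 5.62, 4.81 and 5.89 in mkk1 after BTH, and 4.59, 8.52 and 4.67 in untreated mkk2. HTB1 (AT1G07790), a histone gene listed as a mark of dividing cells, was 9.37, 8.98 and 8.72, then 8.17, 7.98 and 7.94, then 7.57, 7.48 and 7.87, and 8.03, 9.22 and 7.73 in the same groups. On replicate A of Col-0 after BTH, PYK10 was 7.24, HTB1 8.87, GH9B13 6.54 and XTH16 8.74, each the highest of its group. The same held on replicate B of mkk2 after BTH, at 7.21, 8.47, 7.85 and 8.19. PYK10 and HTB1 were each the only gene of their marker list with a single-gene probe set. PYK10 was also high in mkk1/mkk2, at 7.76 to 9.71, where GH9B8 was called lower than in Col-0 in both states. EXPB3 was 5.90 to 7.28 in mkk1/mkk2. It was not called against Col-0 in either state and overlapped with Col-0 after BTH. In untreated mkk1/mkk2, GH9B13 was 7.35, 7.07 and 6.70 and XTH16 was 8.26, 7.97 and 7.83. Both lay above every untreated Col-0 array, though neither change passed the test, and EXPA4 overlapped with Col-0. The root hair expansins EXPA7 and EXPA18 were 3.70 to 4.95 on all 24 arrays. The part of tissue make-up in the GH9B13, EXPB3, XTH16 and EXPA4 values was not tested.

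**Figure D5:**
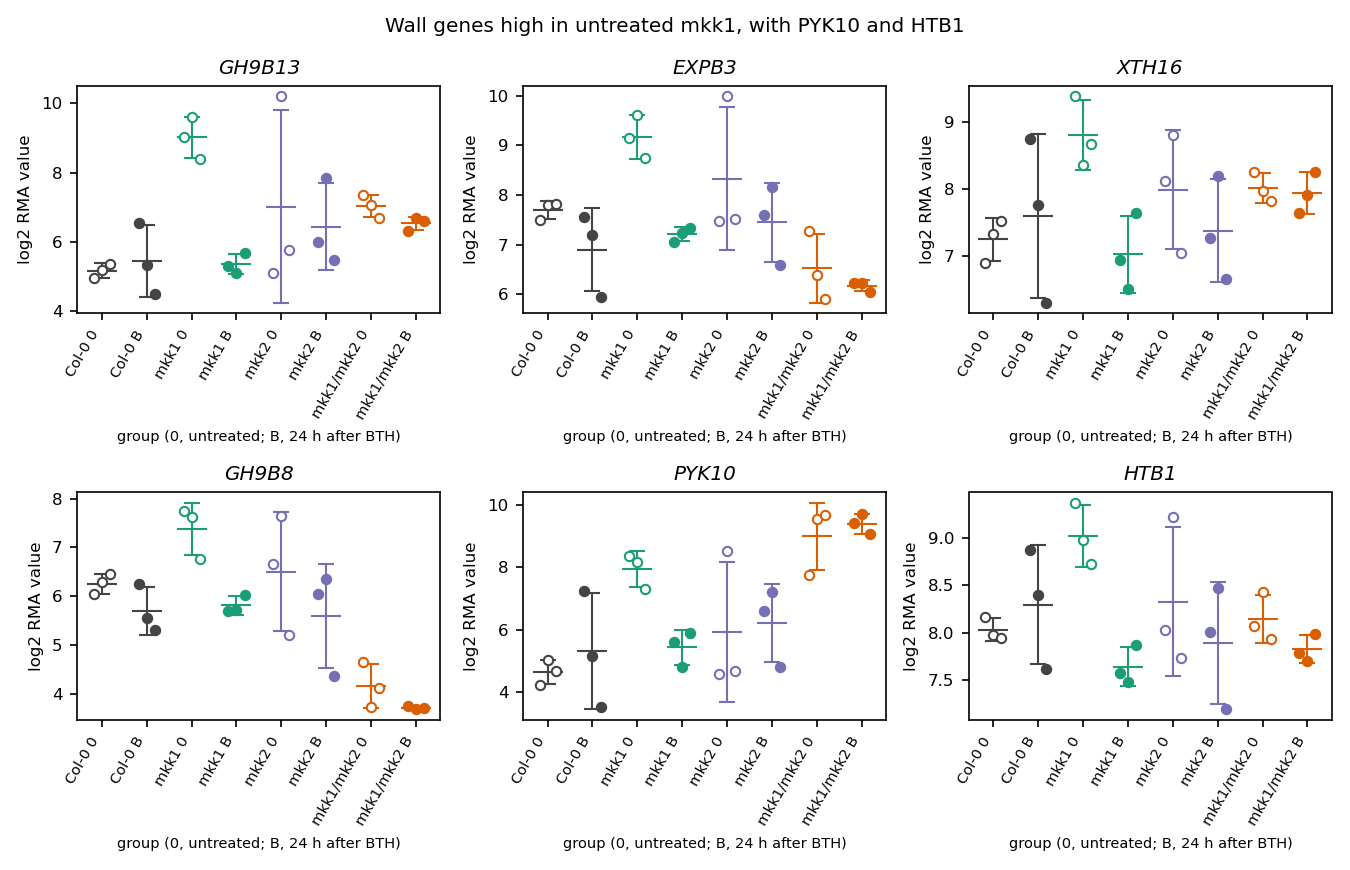
Log2 RMA values of 4 wall genes beside PYK10 and HTB1 on each array (points, replicates A, B and C from left to right; open, untreated; filled, 24 h after BTH), with the group mean and SD as bars. GH9B13, EXPB3, PYK10 and HTB1 are high on the 3 untreated mkk1 arrays and on replicate B of untreated mkk2. These genes are also each the highest of their group on replicate A of Col-0 and replicate B of mkk2 after BTH. In mkk1/mkk2 PYK10 is high and GH9B8 is low, while GH9B13 and XTH16 in untreated mkk1/mkk2 lie above untreated Col-0. EXPB3 in mkk1/mkk2 was not called against Col-0 and overlaps with it after BTH.

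CSLC6 and GH9B5 differed in both single mutants, which were compared with the same Col-0 arrays. CSLC6 was 7.52, 7.37 and 7.30 in untreated mkk1 and 6.93, 7.25 and 6.97 in untreated mkk2, against 6.08, 6.34 and 6.64 in Col-0 (1.04 ± 0.17, adjusted p = 0.000716, and 0.70 ± 0.17, adjusted p = 0.018). GH9B5 was 4.58, 4.60 and 4.25 and 4.77, 4.25 and 4.72, against 5.30, 5.37 and 5.13 (-0.79 ± 0.15 and -0.69 ± 0.15). CSLD2 (0.89 ± 0.22) and EXLA2 (0.97 ± 0.33, adjusted p = 0.0489) were also higher in mkk1 and EXPA8 lower (-1.43 ± 0.35), the EXLA2 call being lost in 19 of 33 alternatives. In mkk2 the third call was GH9C2, at 7.87, 8.70 and 7.50 (-1.07 ± 0.26). That gave mkk2 1 higher and 2 lower genes, 1.96% and 3.92%, against 3.50% and 4.13% of probe sets and 7.63% in all. Of these 11 calls, those of GH9B13, CSLC6 and GH9B5 in mkk1 held in every alternative that tested them. With array weights the counts were 17 in mkk1 and 8 in mkk2, without the 3 outlying arrays 13 and 7, and with only the groups compared 0 in mkk2. Array median centring gave 5 in mkk1. The mkk1 count was 3 without untreated mkk1 replicate A, 4 without untreated Col-0 replicate A and 5 without replicate B of either, and the mkk2 count was 0, 1 and 6 without untreated Col-0 replicate A, B and C, 1 without untreated mkk2 replicate B and 5 when mkk1/mkk2 untreated replicate A was left out.

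After BTH, neither single mutant differed from Col-0 in any of the 51 genes by limma, beside 0.620% of probe sets called in mkk1 (0.343% higher, 0.277% lower) and 1.83% in mkk2 (0.954% higher, 0.879% lower). At an unadjusted p under 0.05 there were 5 genes in mkk1 and 7 in mkk2 (9.80% and 13.7%, against 16.1% and 16.2% of probe sets). The nearest was CSLC6 in mkk1, at 7.36, 6.88 and 7.21 against 6.16, 6.61 and 6.65 (0.68 ± 0.17, adjusted p = 0.0684). With array weights the counts were 7 in mkk1 (4 higher, 3 lower) and 13 in mkk2 (7 higher, 6 lower). The mkk1 count was 1 with quantile normalization and 1 without BTH-treated Col-0 replicate C or mkk1/mkk2 untreated replicate A.

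Of the 51 genes, 26 passed the test in none of the 13 comparisons, and 20 of these 26 had a mean below 5, against 4 of the 25 that passed at least once. They include XTH19, XTH20, XTH21, XTH26 and XTH33, 7 of 10 EXPA genes, EXPB2 and EXPB5, both GH9A genes, 6 of 10 GH9B genes, GH9C1, GH9C3, CSLA03 and CSLC12. Their group means spanned 0.12 (GH9B11) to 1.29 (EXPA15) between the lowest and the highest group. The GH9A genes, relatives of the membrane-bound endoglucanase of cellulose synthesis, lay at 4.50 to 5.26 (GH9A3) and 3.23 to 3.81 (GH9A4). GH9B16, GH9B17 and GH9B18, whose locus numbers AT4G38990, AT4G39000 and AT4G39010 follow each other, had no call either.

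Wall genes outside these families were few under the same annotation. Of 22 TBL genes, relatives of enzymes that acetylate wall polysaccharides, set apart after the lists were drawn up, 5 were lower and 1 higher in untreated mkk1/mkk2, 22.7% and 4.55% beside 17.2% and 16.1% of all probe sets, with a median change of -0.13 beside -0.01. TBL26 (AT4G01080) was 3.89 ± 0.45 lower there (adjusted p = 1.03e-06) and TBL28 (AT2G40150) 2.96 ± 0.16 lower, while TBL38 (AT1G29050) was 1.17 ± 0.22 higher. After BTH, 4 TBL genes were lower in Col-0, 3 in mkk1 and 6 in mkk2, and TBL32 (AT3G11030) was higher in each. The lower genes were 18.2%, 13.6% and 27.3% of the 22, beside 4.27%, 3.81% and 4.55% of all probe sets. The higher one was 4.55%, beside 4.55%, 4.77% and 6.20%. The TBL32 probe set has the suffix _s_at, and cross-hybridization with other genes was not tested for it. COB (AT5G60920), which orients cellulose deposition, was 1.56 ± 0.23 lower in untreated mkk1/mkk2. The TBL genes and COB belong to a list of 30 genes drawn by symbol, which also took in PGM, PGY1, PGL34 and PGRL1B, genes that are not of the wall. Of the 30, 11 were lower and 1 higher in untreated mkk1/mkk2, and of the 26 without those 4, 8 were lower and 1 higher (30.8% and 3.85%, beside 17.2% and 16.1% of all probe sets).

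Of 6 genes listed for lignin and wall oxidation, 3 were higher in untreated mkk1/mkk2 and 1 was lower, beside 16.1% and 17.2% of all probe sets. CCOAMT (AT1G67980), a methyltransferase of phenylpropanoid synthesis, stood at 9.46, 10.18 and 10.38 against 4.66, 4.27 and 4.24 in untreated Col-0 (5.62 ± 0.21, adjusted p = 4.24e-13). The peroxidase PRX52 (AT5G05340), named in lignin formation, was 7.75, 6.78 and 6.52 against 3.91, 4.29 and 3.83 (3.01 ± 0.28), CCR2 (AT1G80820) was 1.72 ± 0.19 higher and 4CL8 (AT5G38120) 0.40 ± 0.15 lower. By synonym, 4 more genes of the chosen families were measured, EXGT-A3, AT4G02300, ATPMEPCRB and AT4G30380. ATPMEPCRB (AT4G02330), a pectin methylesterase gene, was 3.46, 4.74 and 6.44 in untreated Col-0 and 6.08 to 7.09 on the 21 other arrays, and it was called higher in Col-0 after BTH and in all 3 untreated mutants. These 4 calls share the 3 untreated Col-0 arrays, of which replicate C lay within the range of the others. The list of wall structural proteins held only PEX4 and PRP39, which are not wall proteins, and the hormone list only BRL1 (0.31 ± 0.11 in untreated mkk1/mkk2, adjusted p = 0.0294).

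GH9C2 and CSLC5 were called in the most comparisons, 6 and 5 of 13. Over the 8 group means, the genes of the 51 most like GH9C2 were CSLC5 (Pearson's r = 0.972), EXPB1 (0.949) and ATCSLC08 (0.947), and the other genes were AT5G26670 and AT4G37110 (both 0.991) and AT5G55580 (0.991). Those most like CSLC5 were GH9C2, ATCSLC08 (0.966) and XTH32 (0.869), and AT5G26670 (0.986), AT5G17460 (0.986) and AT5G01090 (0.985). These are descriptions over 8 means from the same arrays, in which the 2 mkk1/mkk2 means lie far from the rest. The pollen and stamen markers AMS, ANX1, ANX2 and SWEET8 averaged 3.46 to 3.91 on every array.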

How the data were processed

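Per the submitters' processing notes, the authors made the deposited log2 expression values with RMA (robust multi-array average). Neither its version nor the arrays normalized together are given in the sources used here. The table held 22810 probe sets, of which 64 AFFX controls were set aside, and 22746 were tested with no filter and no further transformation. A single gene was assigned to 13513 probe sets, several genes to 503 and none to 8730 by the array annotation, and 13436 of the first also had an entry in the RefSeq gene table of TAIR10.1, whose coordinates are not used because the files name no build. Of several probe sets of a gene, the one with the highest mean was used.

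With limma 3.58.1 in R 4.3.3, a linear model with 8 group means was fitted over the 24 arrays, without a variance trend, and 13 contrasts were tested two-sided. Adjustment was by Benjamini-Hochberg across 22746 probe sets, and an adjusted p under 0.05 was called. The procedure was also run on simulated data with independent noise and no outlying array. That setting is simpler than these data, and no result here rests on it. Errors are limma's standard errors, with n = 3 arrays per group, a number that limits the precision.

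Named with values were up to 6 called genes per direction and comparison with the largest change, the brightest gene of each family, XTH32 and GH9B13, and others were added after their values were seen. The genes and lists were chosen with earlier results of these data known. Alternatives were other normalizations, a level filter, a variance trend, array weights (limma's gene-by-gene method, since its default did not converge), a replicate block, the dimmest probe set, only the groups compared, and arrays left out. Of 84 pairs of arrays with the same letter in different groups, 26 had deviations from their group means that correlated above 0.1. The median correlation was 0.036 and the highest 0.606, beside a median of -0.023 for pairs with different letters. Replicate letters were therefore not treated as pairs in the main fit.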

Additional observations from a re-analysis of the deposited data

How the results depend on the processing

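Of the 60 called changes of single genes, 31 held in every alternative that tested them, 29 lost their call in at least 1 and none reversed. Of the 30 calls between mkk1/mkk2 and Col-0, 24 held throughout, against 4 of 19 BTH calls and 3 of 11 single mutant calls. Each of the 51 genes has 1 probe set, so the dimmest probe set, 1 of the 33 alternatives, could not change any call. The level filter removed 25 genes. The cause was not tested for any changed count except where fewer arrays or genes were fitted by construction.

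Counts of called genes are given against the value in the fit of all arrays. With only the groups compared they were 13 against 7 for BTH in mkk1, 3 against 8 for BTH in mkk2, 0 against 3 for untreated mkk2 and 1 against 0 for the difference in response of mkk1/mkk2. With array weights they were 16, 16 and 14 for BTH in Col-0, mkk1 and mkk2, 17 and 8 for untreated mkk1 and mkk2, 7 and 13 for mkk1 and mkk2 after BTH, and 4, 2 and 3 for the differences in response of mkk1, mkk2 and mkk1/mkk2. The filter gave 11 for BTH in mkk1, median centring 5 against 8 for untreated mkk1 (3 higher and 2 lower, against 6 and 2), and quantile normalization 1 for mkk1 after BTH. The replicate block gave 5 for untreated mkk2 and 2 for the difference in response of mkk1/mkk2. Without the 3 arrays that stood apart the counts were 9 and 15 for BTH in Col-0 and mkk1, 13 and 7 for untreated mkk1 and mkk2, and 2 for the difference in response of mkk1/mkk2.

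Leaving out 1 array gave 2 to 8 for BTH in Col-0, 2 to 14 in mkk1 and 3 to 12 in mkk2, 3 to 11 for untreated mkk1, 0 to 6 for untreated mkk2, 14 to 20 for untreated mkk1/mkk2, and 12 to 16 for mkk1/mkk2 after BTH. It gave 0 to 1 for mkk1 after BTH and for the difference in response of mkk1/mkk2 (1 without untreated mkk2 replicate B or untreated mkk1/mkk2 replicate B), and 0 for the other comparisons.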
